A study of Mus musculus with 6 samples.

Results

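The folate-dependent one-carbon enzymes of mitochondria and cytosol were followed as 9 genes among the 49671 listed in a liver RNA-seq count table. They were chosen by symbol: *Shmt2*, *Shmt1*, *Mthfd1*, *Mthfd1l*, *Mthfd2*, *Mthfd2l*, *Aldh1l1*, *Aldh1l2* and the carrier gene *Slc25a32*. Each matched 1 gene ID. Livers came from 3 SHMT2fl/fl mice, labelled WT, and 3 SHMT2HKO mice, labelled KO, all male and on a C57BL/6 J background. Both groups carried a *Shmt2* allele with loxP sites around exons 3 to 12. Only the SHMT2HKO mice also carried Cre recombinase under the albumin promoter, which is active in hepatocytes. The study proposes that the non-parenchymal cells of the liver keep SHMT2, which was not tested here. All 6 had received the AMLN diet, a feed high in fat, cholesterol and fructose, starting at 4 weeks of age and lasting 18 weeks, and no chow-fed liver was analysed here. The labels number the samples 1 to 3 within a genotype without further detail. Each is called a mouse here, and p-values measure the spread between these samples.

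Tetrahydrofolate carries single carbons for the synthesis of purines, thymidylate and methionine. Serine hydroxymethyltransferase moves a carbon from serine to tetrahydrofolate, with SHMT2 in mitochondria and SHMT1 in the cytosol. In mitochondria, MTHFD2 or MTHFD2L oxidises the methylene group to the formyl level, MTHFD1L releases it as formate, and ALDH1L2 can oxidise it further to carbon dioxide. Formate crosses to the cytosol, where the trifunctional MTHFD1 reattaches it to tetrahydrofolate, and ALDH1L1 is the cytosolic counterpart of ALDH1L2. SLC25A32 carries folate into mitochondria. The liver is known for high levels of the cytosolic branch, ALDH1L1 in particular.

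Of the 8 genes tested, 6 differed between genotypes, as described below, against 29.0% of all genes tested. They fell into a group of cytosolic enzymes that was higher in SHMT2HKO livers and a group of mitochondrial enzymes that was lower. Of all genes tested, 12.5% were called higher and 16.5% lower. The calls of the cytosolic enzymes depended on how the counts were scaled, as given below. *Shmt2* is the deleted gene, so its place in the lower group was set by the design. The 250 bases upstream of the RefSeq start of these 6 genes are shown so that the proximal promoters can be compared. Of the 9 genes, 7 had an entry in the RefSeq promoter set of GRCm38.p6, and *Aldh1l2* and *Slc25a32* did not. Sequences run 5′ to 3′ on the strand of the gene, and capitals mark a CCAAT box on either strand (CCAAT or ATTGG). The windows of the cytosolic genes were chr11:60811266-60811515 (minus strand), chr12:76254982-76255231 (plus strand) and chr6:90550543-90550792 (plus strand).
Shmt1: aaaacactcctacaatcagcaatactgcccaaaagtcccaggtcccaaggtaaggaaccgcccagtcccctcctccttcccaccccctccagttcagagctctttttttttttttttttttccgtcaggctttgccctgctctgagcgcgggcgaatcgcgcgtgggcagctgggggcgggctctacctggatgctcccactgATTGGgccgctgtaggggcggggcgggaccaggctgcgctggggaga
Mthfd1: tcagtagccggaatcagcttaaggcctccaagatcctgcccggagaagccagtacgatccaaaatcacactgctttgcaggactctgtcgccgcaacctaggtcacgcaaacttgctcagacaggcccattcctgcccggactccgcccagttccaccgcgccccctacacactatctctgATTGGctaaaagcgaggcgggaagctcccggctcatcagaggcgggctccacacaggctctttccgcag
Aldh1l1: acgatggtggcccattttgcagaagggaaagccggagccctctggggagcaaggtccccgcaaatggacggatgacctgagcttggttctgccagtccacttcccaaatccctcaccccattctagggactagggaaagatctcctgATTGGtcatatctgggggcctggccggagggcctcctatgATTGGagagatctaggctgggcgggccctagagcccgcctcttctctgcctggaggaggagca
The windows of the mitochondrial genes were chr10:127522445-127522694 (minus strand), chr6:83317605-83317854 (minus strand) and chr10:3972825-3973074 (plus strand).
Shmt2: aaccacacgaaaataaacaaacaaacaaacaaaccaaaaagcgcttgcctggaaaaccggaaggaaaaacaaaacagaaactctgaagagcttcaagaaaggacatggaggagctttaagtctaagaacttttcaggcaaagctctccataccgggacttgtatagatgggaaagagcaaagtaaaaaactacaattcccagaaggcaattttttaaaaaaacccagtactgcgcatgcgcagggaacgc
Mthfd2: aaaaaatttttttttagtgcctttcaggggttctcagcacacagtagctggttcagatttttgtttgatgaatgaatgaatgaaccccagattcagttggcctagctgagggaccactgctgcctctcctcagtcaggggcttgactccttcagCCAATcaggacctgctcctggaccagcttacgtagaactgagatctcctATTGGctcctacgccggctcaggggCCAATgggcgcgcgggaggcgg
Mthfd1l: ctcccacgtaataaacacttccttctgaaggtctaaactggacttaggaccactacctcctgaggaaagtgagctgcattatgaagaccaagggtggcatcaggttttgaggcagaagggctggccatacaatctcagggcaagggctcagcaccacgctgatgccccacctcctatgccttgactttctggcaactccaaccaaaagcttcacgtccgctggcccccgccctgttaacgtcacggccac
Each of the 3 cytosolic windows held at least 1 CCAAT box, and every copy was in the inverted orientation. The nearest inverted copy ended 43 bases before the start in *Shmt1*, 65 in *Mthfd1* and 59 in *Aldh1l1*, which held 2 copies. These distances hold for the RefSeq starts. For *Mthfd1* and *Mthfd1l* the first bases after that start matched no GENCODE transcript of the gene. Among the mitochondrial genes, *Mthfd2* held 3 copies, with an inverted copy that ended 43 bases before the start, as in *Shmt1*. These letters were not in the windows of *Shmt2*, *Mthfd1l* and *Mthfd2l*. The CCAAT box was present on either strand in 33.8% of 32851 RefSeq promoter windows of the same length. The share of windows with an inverted copy was not counted. The GC box GGGCGG, present in 32.7% of windows, was on either strand in all 3 cytosolic windows and in that of *Mthfd1l*, and not in those of *Shmt2*, *Mthfd2* and *Mthfd2l*. *Shmt1* held 4 copies, of which the last 2 share a base. The E-box CACGTG (6.02% of windows) and the letters TGATGNAAN of the amino acid response element bound by ATF4 (3.44%) were in none of the 7 windows, on either strand. The matches describe these windows only.

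Counts on genes lay between 23090837 and 34089722 per sample, and the ERCC spike-in RNAs added to 1.35% to 2.75% of all counts. Counts were scaled with TMM, which sets a factor per library from genes that change little, and are given as CPM, the share of a gene in the scaled library. The factors were 1.13 to 1.21 in SHMT2fl/fl livers and 0.802 to 0.984 in SHMT2HKO livers, so every fold change depends on this step. SHMT2HKO mouse 3 stood apart from the other two of its group, with the highest factor of that group and values nearer to the controls for several of the genes, and results are therefore also given without it. Of the hepatocyte marker genes, 9 were analysed and summed to 52666 to 64142 CPM in SHMT2fl/fl and 66247 to 96247 CPM in SHMT2HKO livers.

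*Shmt2* itself fell in SHMT2HKO livers, to 24.4% of the control mean. The gene lies on the minus strand of chromosome 10 (127517123 to 127522444, GRCm38). It measured 94.6, 109 and 93.9 CPM in SHMT2fl/fl mice 1, 2 and 3, and 24.9, 28.3 and 19.3 CPM in SHMT2HKO mice 1, 2 and 3. Every SHMT2HKO value lay below every control value, in the direction of the labels, and the values within each group were close. The means were 99.2 ± 8.51 and 24.2 ± 4.51 CPM (SD, n = 3 each), a log2 fold change of -2.04 (standard error 0.16, 95% interval -2.41 to -1.67, edgeR adjusted p = 0.000639). The test was the quasi-likelihood test of edgeR, and p-values were adjusted by the Benjamini-Hochberg method over the 16089 genes tested. The deletion covers exons 3 to 12, which make up 84.5% of the 2289 bases of the 12-exon coding transcript, and 15.5% lie outside. Counts per gene do not separate reads from deleted and retained exons, and in bulk liver fewer cells of a type and less RNA per cell cannot be told apart.

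*Shmt1*, the cytosolic counterpart (chromosome 11, 60788104 to 60811718, minus strand), rose. Its values were 84.5, 91.0 and 79.9 CPM in SHMT2fl/fl mice and 195, 262 and 138 CPM in SHMT2HKO mice. The groups did not overlap, and the lowest SHMT2HKO value was that of mouse 3. The means were 85.1 ± 5.63 and 198 ± 62.0 CPM (SD, n = 3 each), 2.33-fold higher (log2 fold change 1.22, standard error 0.22, 95% interval 0.71 to 1.72, edgeR adjusted p = 0.00585). Without SHMT2HKO mouse 3 the log2 fold change was 1.40, and without SHMT2HKO mouse 2 it was 0.97, the extremes with 1 mouse left out. The call was lost with ERCC scaling alone, and the adjusted p ran from 2.22e-06 to 0.546 over 15 alternatives in edgeR, DESeq2 and limma-voom.

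The balance between both serine hydroxymethyltransferases can be read within a library, where no scaling enters. Per kilobase of exon, *Shmt2* exceeded *Shmt1* in each SHMT2fl/fl liver, with ratios of 1.398, 1.495 and 1.469. In SHMT2HKO livers the ratios were 0.159, 0.135 and 0.175. The order of both transcripts was thus inverted in all 3 SHMT2HKO livers, and the share of *Shmt2* in their sum went from between 58.3% and 59.9% to between 11.9% and 14.9%. On the log2 scale the mean ratio was 0.54 ± 0.05 in SHMT2fl/fl and -2.68 ± 0.19 in SHMT2HKO livers (SD, n = 3 each), a difference of -3.22. *Shmt2* is the deleted gene, so a fall of this ratio was set by the design. On the TMM scale *Shmt2* changed by -2.04 and *Shmt1* by 1.22. With 3 libraries against 3, an exact permutation test cannot give a two-sided p under 0.1, and none is quoted for the ratios.

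*Mthfd1*, the cytosolic trifunctional enzyme that takes up formate (chromosome 12, 76255298 to 76319803, plus strand), was higher in SHMT2HKO livers by a smaller step than *Shmt1*. It measured 112, 122 and 127 CPM in SHMT2fl/fl mice and 194, 244 and 166 CPM in SHMT2HKO mice. The groups did not overlap. The means were 120 ± 7.77 and 202 ± 39.4 CPM (SD, n = 3 each), a log2 fold change of 0.74 (standard error 0.16, 95% interval 0.37 to 1.12, edgeR adjusted p = 0.0120), which became -0.034 with scaling to the ERCC RNAs. Without SHMT2HKO mouse 3 it was 0.84, and the adjusted p was 0.0555 without SHMT2fl/fl mouse 1 and 0.0941 without TMM, against a range of 0.000220 to 0.959 over the 15 alternatives.

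*Mthfd1l*, the mitochondrial formyl-tetrahydrofolate synthetase that releases formate (chromosome 10, 3973118 to 4167081, plus strand), was lower. It measured 12.1, 18.1 and 16.2 CPM in SHMT2fl/fl mice and 3.06, 5.11 and 10.5 CPM in SHMT2HKO mice. SHMT2HKO mouse 3 lay close to the lowest control, while mice 1 and 2 lay far below. The means were 15.5 ± 3.06 and 6.23 ± 3.85 CPM (SD, n = 3 each), a log2 fold change of -1.31 (standard error 0.40, 95% interval -2.23 to -0.38, edgeR adjusted p = 0.0435). Without SHMT2HKO mouse 3 it was -1.95. The call was lost without any single SHMT2fl/fl mouse or without SHMT2HKO mouse 2, where the adjusted p reached 0.130, and over all alternatives it ran from 0.00248 to 0.182.

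*Mthfd2*, a mitochondrial methylene-tetrahydrofolate dehydrogenase that is low in most adult tissues (chromosome 6, 83305691 to 83325908, minus strand), was lower as well. Its values were 8.59, 6.58 and 7.72 CPM in SHMT2fl/fl mice and 2.25, 2.94 and 4.84 CPM in SHMT2HKO mice. The groups did not overlap, and SHMT2HKO mouse 3 was again the nearest to the controls. The means were 7.63 ± 1.004 and 3.34 ± 1.34 CPM (SD, n = 3 each), a log2 fold change of -1.19 (standard error 0.29, 95% interval -1.86 to -0.52, edgeR adjusted p = 0.0189). Without SHMT2HKO mouse 3 it was -1.58. The call was lost without SHMT2fl/fl mouse 1 or 3 or SHMT2HKO mouse 2, with an adjusted p of up to 0.0724 and a range from 0.00139 to that value over all alternatives.

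*Mthfd2l*, the second mitochondrial enzyme of this step (chromosome 5, 90931117 to 91021368, plus strand), did not pass the test. It measured 5.26, 4.70 and 5.40 CPM in SHMT2fl/fl mice and 3.86, 3.85 and 4.41 CPM in SHMT2HKO mice. All 3 SHMT2HKO values lay under the controls, by a narrow margin. The log2 fold change was -0.34 (standard error 0.19, 95% interval -0.77 to 0.09, edgeR adjusted p = 0.206), and without TMM it passed, at -0.76 (adjusted p = 0.0372, with a highest value of 0.433 over the alternatives).

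Within a library, *Mthfd1l* had shifted against its cytosolic counterpart *Mthfd1*, and *Mthfd2* against *Mthfd2l*, which is mitochondrial as well. The ratio of *Mthfd1l* to *Mthfd1* per kilobase was -2.97 ± 0.22 on the log2 scale in SHMT2fl/fl and -5.18 ± 1.06 in SHMT2HKO livers (SD, n = 3 each), a difference of -2.21. *Mthfd2* exceeded *Mthfd2l* by 3.11, 2.67 and 2.72 times in SHMT2fl/fl mice and by 1.11, 1.45 and 2.09 times in SHMT2HKO mice. Neither ratio overlapped between genotypes, and SHMT2HKO mouse 3 was the nearest to the controls in both.

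**Figure D1:**
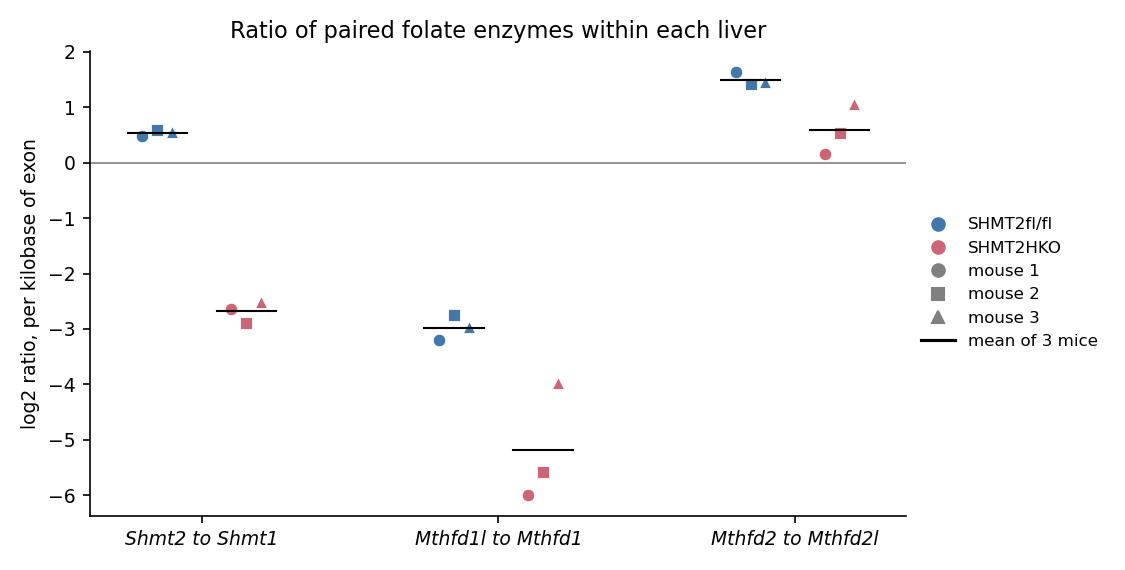
Log2 ratio per kilobase of exon (y axis) for 3 pairs of folate enzymes, each point 1 liver and each bar the mean of 3. The SHMT2HKO points lie under the SHMT2fl/fl points for each pair, and the ratio of *Shmt2*, the deleted gene, to *Shmt1* moves from 0.54 to -2.68.

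*Aldh1l1*, the cytosolic formyl-tetrahydrofolate dehydrogenase (chromosome 6, 90486427 to 90600203, plus strand), was the most abundant of the 9 per kilobase and was higher in SHMT2HKO livers. It measured 522, 593 and 572 CPM in SHMT2fl/fl mice and 1306, 1558 and 662 CPM in SHMT2HKO mice. Mice 1 and 2 of the SHMT2HKO group lay far above the controls, while mouse 3 lay just above them. The means were 562 ± 36.8 and 1175 ± 462 CPM (SD, n = 3 each), a log2 fold change of 1.06 (standard error 0.29, 95% interval 0.39 to 1.74, edgeR adjusted p = 0.0283). Without SHMT2HKO mouse 3 it was 1.33. The call was lost without any single SHMT2fl/fl mouse or SHMT2HKO mouse 2 (adjusted p up to 0.101) and without TMM (0.0690), and over all alternatives the adjusted p ran from 0.000869 to 0.771. The gene overlaps exons of *Gm15756* on the opposite strand (499 bases) and of *Gm45901* on its own strand (105 bases), and the use of strand in counting is not given in the sources used here.

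*Aldh1l2*, its mitochondrial counterpart (chromosome 10, 83487450 to 83534140, minus strand), was barely detected, with 12, 4 and 10 counts in SHMT2fl/fl mice and 9, 4 and 17 counts in SHMT2HKO mice. The groups overlapped, and the gene was under the filter on low counts. All 6 values lay above a floor of 3 counts, which is 0.0734 to 0.152 CPM in these libraries. Without the filter, edgeR gave a log2 fold change of 0.79 with a 95% interval of -0.61 to 2.20 (adjusted p = 0.522), so changes within that interval could not be resolved. Its exons share 1056 bases with *D10Wsu102e* on the opposite strand.

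*Slc25a32*, the mitochondrial folate carrier (chromosome 15, 39091231 to 39112716, minus strand), did not pass the test. It measured 10.2, 11.4 and 9.24 CPM in SHMT2fl/fl mice and 8.998, 10.7 and 17.5 CPM in SHMT2HKO mice. The groups overlapped, and only SHMT2HKO mouse 3 lay above the controls. The log2 fold change was 0.27 (standard error 0.25, 95% interval -0.29 to 0.84, edgeR adjusted p = 0.445), and its sign turned without SHMT2HKO mouse 3 (-0.084), without TMM (-0.11) and with ERCC scaling (-0.26).

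Of the 8 genes tested, 6 had an adjusted p under 0.05, against 29.0% of all genes tested. The 3 higher genes, where 12.5% of all genes were called higher, were the 3 cytosolic enzymes. The 3 lower genes, where 16.5% of all genes were called lower, were *Shmt2*, *Mthfd1l* and *Mthfd2*, all mitochondrial. *Shmt2* is the deleted gene, so its place in both counts was set by the design. *Mthfd1l*, *Mthfd2* and *Aldh1l1* each lost their call when certain single mice were left out, and *Mthfd1* lost it without SHMT2fl/fl mouse 1. The number called higher was 1 without TMM and 0 with ERCC scaling. For 3 genes every SHMT2HKO value lay above every control value, as for 21.9% of all genes, and for 4 genes every value lay below, as for 25.0%. The median log2 fold change of the 8 genes was -0.03, against 0.03 over all genes tested. DESeq2 and limma-voom called the same number in each direction, 3 higher and 3 lower.

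**Figure D2:**
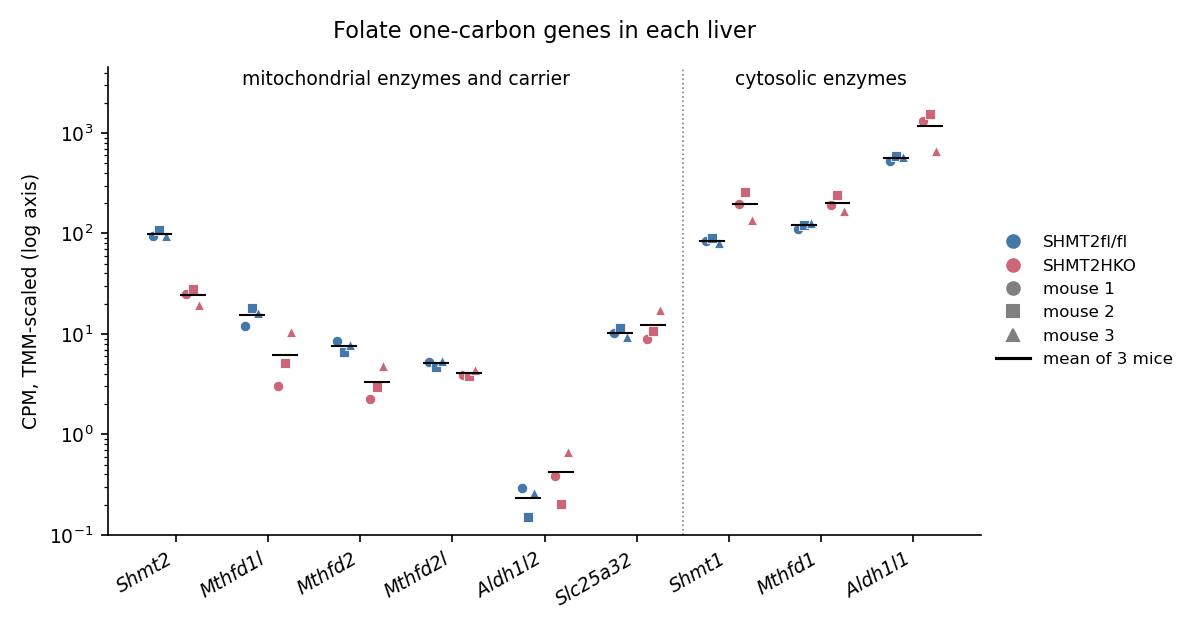
Level of each gene in CPM after TMM scaling (log y axis) in each of the 6 livers, with mitochondrial genes on the left, cytosolic enzymes on the right, and a bar at the mean of 3 mice. *Shmt2*, *Mthfd1l* and *Mthfd2* lie lower and *Shmt1*, *Mthfd1* and *Aldh1l1* higher in all SHMT2HKO mice on this scale, and with ERCC scaling *Mthfd1* changes by -0.034.

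Levels of different genes were compared per kilobase of exon. In SHMT2fl/fl livers the order was *Aldh1l1* (125 CPM per kilobase), *Shmt2* (31.9), *Mthfd1* (27.1), *Shmt1* (21.9), *Mthfd1l* (3.49), *Mthfd2* (2.19), *Slc25a32* (1.69), *Mthfd2l* (0.771) and *Aldh1l2* (0.0313). No neighbours in this order overlapped over the 3 livers, although *Mthfd2* and *Slc25a32* came close, at 1.89 and 1.87 CPM per kilobase. In SHMT2HKO livers *Aldh1l1* (260) was followed by *Shmt1* (51.0), *Mthfd1* (45.4) and *Shmt2* (7.77), and then by *Slc25a32* (2.04), *Mthfd1l* (1.40), *Mthfd2* (0.959), *Mthfd2l* (0.608) and *Aldh1l2* (0.0557). *Shmt1* and *Mthfd1* overlapped there, and so did each pair of neighbours from *Slc25a32* to *Mthfd2l*. *Shmt2* thus stood above *Mthfd1* and *Shmt1* in the controls and below both in the SHMT2HKO livers.

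The 5 mitochondrial enzymes summed to 36.4, 41.8 and 36.9 CPM per kilobase in SHMT2fl/fl mice and to 9.98, 11.7 and 10.7 in SHMT2HKO mice. Most of this sum was *Shmt2*, the deleted gene. The 3 cytosolic enzymes summed to 162, 182 and 176 CPM per kilobase in SHMT2fl/fl mice and to 383, 467 and 220 in SHMT2HKO mice, most of it *Aldh1l1*. Neither sum overlapped between genotypes, and SHMT2HKO mouse 3 was low in the cytosolic sum. The close mitochondrial sums of the SHMT2HKO mice do not describe each enzyme. In mice 1, 2 and 3 *Shmt2* was at 8.01, 9.09 and 6.22 CPM per kilobase. *Mthfd1l* was at 0.689, 1.15 and 2.37, and *Mthfd2* at 0.645, 0.842 and 1.39, both highest in mouse 3.

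How much of each change was a rise or a fall depended on the scale. Without TMM the median gene moved by -0.42 on the log2 scale, and with scaling to the ERCC RNAs by -0.72. With ERCC scaling, *Shmt1* changed by 0.39, *Aldh1l1* by 0.16 and *Mthfd1* by -0.034, and none of the 3 passed the test (edgeR adjusted p = 0.546, 0.771 and 0.959). *Shmt2* changed by -2.82, and *Mthfd1l* and *Mthfd2* also kept their calls. Relative to the median gene of that scale, the changes were 1.08 for *Shmt1*, 0.85 for *Aldh1l1*, 0.66 for *Mthfd1*, -2.13 for *Shmt2*, -1.04 for *Mthfd1l* and -1.06 for *Mthfd2*. The higher level of the cytosolic enzymes was thus seen relative to the other genes of the liver. With ERCC scaling the standard errors were 0.46 for *Shmt1*, 0.45 for *Mthfd1* and 0.41 for *Aldh1l1*. With TMM they were 0.22, 0.16 and 0.29. The estimates were also smaller with ERCC scaling, and in SHMT2HKO livers the ERCC share of all counts ran from 1.35% to 2.75%. Whether these enzymes rose in absolute terms is thus undecided. The 3 mitochondrial enzymes were called lower on each of the 5 scales.

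**Figure D3:**
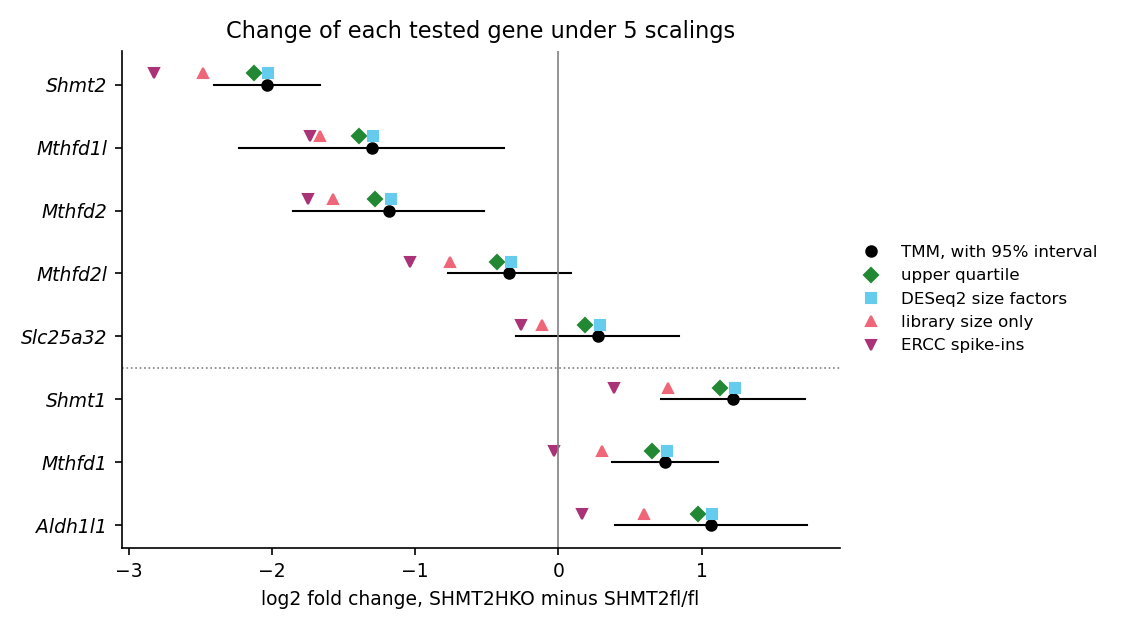
Log2 fold change (x axis) of the 8 genes tested under 5 scalings, with the 95% interval of the TMM fit and mitochondrial genes above the dotted line. *Shmt2*, *Mthfd1l*, *Mthfd2* and *Mthfd2l* stay under 0 on each scale, whereas *Mthfd1* reaches -0.034 and *Slc25a32* reaches -0.26 with ERCC scaling.

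Other genes of the folate pathway were counted in lists, and over all genes tested 12.5% were called higher and 16.5% lower. Of 6 genes for folate uptake and retention, 5 were tested, and 3 were higher and 0 lower (median log2 fold change 0.64). These were *Folr2*, a folate receptor that is also a macrophage gene (1.92, adjusted p = 0.0209), *Fpgs*, which adds glutamates to retain folate (0.78, adjusted p = 0.0111), and *Slc46a1*, the proton-coupled transporter (0.64, adjusted p = 0.0181), all from edgeR. *Slc19a1*, the reduced folate carrier (0.22), and *Ggh*, which removes the glutamates (-0.35), did not pass, and *Folr1* was under the filter. With ERCC scaling none of the 5 was called and *Slc46a1* changed by -0.10, and when 1 mouse was left out the number higher was between 1 (without SHMT2fl/fl mouse 3 or SHMT2HKO mouse 2) and 3.

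Of 6 enzymes that use folate-bound carbons, 1 was higher and 0 lower (median 0.091), a share near the 12.5% of all genes called higher. *Mtrr*, which reactivates methionine synthase, changed by 0.57 (edgeR adjusted p = 0.0386), by -0.095 with ERCC scaling, and it lost its call without any single mouse other than SHMT2HKO mouse 1 (adjusted p up to 0.130, and 0.0185 to 0.903 over all alternatives). Methionine synthase *Mtr* (0.05), thymidylate synthase *Tyms* (-0.04), the purine synthesis enzymes *Gart* (0.13) and *Atic* (0.08) and the mitochondrial formyltransferase *Mtfmt* (0.10) did not pass.

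Carbons also enter the folate pool from choline, glycine and histidine. Of 9 such genes 4 were higher and 0 lower (median 0.54), against 12.5% of all genes called higher. *Dmgdh*, the mitochondrial dimethylglycine dehydrogenase of choline breakdown, measured 189, 191 and 202 CPM in SHMT2fl/fl mice and 546, 551 and 358 CPM in SHMT2HKO mice. The groups were far apart, with a log2 fold change of 1.32 (standard error 0.19, edgeR adjusted p = 0.00261), 0.49 with ERCC scaling, where the call was lost. The other 3 were *Gcsh* of the glycine cleavage system (0.72, adjusted p = 0.0184), *Ftcd* of histidine breakdown (0.69, adjusted p = 0.0252) and *Dld*, which serves several dehydrogenase complexes (0.44, adjusted p = 0.0326). With ERCC scaling their values were -0.10, -0.14 and -0.24, and only 1 gene of the list was called without SHMT2fl/fl mouse 1, without SHMT2fl/fl mouse 2 or without SHMT2HKO mouse 2.

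The sideroflexins, of which SFXN1 brings serine into mitochondria, did not move together. *Sfxn3* measured 14.60, 17.34 and 15.01 CPM in SHMT2fl/fl mice and 5.22, 3.34 and 5.71 CPM in SHMT2HKO mice. It was lower without overlap (log2 fold change -1.71, standard error 0.22, edgeR adjusted p = 0.00167). *Sfxn2* was higher by 0.48 (adjusted p = 0.0319), but changed by -0.27 with ERCC scaling and lost its call without any single SHMT2fl/fl mouse or SHMT2HKO mouse 2 (adjusted p up to 0.113, and 0.0147 to 0.814 over all alternatives). The third, *Sfxn1*, did not pass, at 0.23 (-0.48 with ERCC scaling).

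ATF4, a transcription factor of the amino acid response, is known to drive *Shmt2*, *Mthfd2*, *Mthfd1l* and *Aldh1l2* together with serine synthesis genes. Of 16 of its other target genes, 6 were lower and 0 higher (median -0.60), against 16.5% of all genes called lower. They included *Phgdh* (-1.55, adjusted p = 0.00405) and *Psat1* (-1.29, adjusted p = 0.00556) of serine synthesis, asparagine synthetase *Asns* (-1.47, adjusted p = 0.0362) and the cystine transporter *Slc7a11* (-1.87, adjusted p = 0.0282), all from edgeR. *Phgdh* measured 3.74, 4.36 and 4.07 CPM in SHMT2fl/fl mice and 1.70, 1.32 and 1.14 CPM in SHMT2HKO mice, with no overlap. *Asns* lost its call without any single SHMT2fl/fl mouse (adjusted p up to 0.116), *Slc7a11* lost it without SHMT2fl/fl mouse 1 or 3 or SHMT2HKO mouse 2 or 3 (up to 0.113), and the number lower ranged from 3 (without SHMT2fl/fl mouse 1 or 3) to 9 (without SHMT2HKO mouse 3). It was 9 with upper quartiles and 12 without TMM. The other 10 genes did not pass. Among them *Chac1*, a glutathione-degrading enzyme, had the largest positive value and is named after its values were seen. It measured 5.21, 6.40 and 4.57 CPM in SHMT2fl/fl mice and 18.1, 5.27 and 14.3 CPM in SHMT2HKO mice. The groups overlapped through SHMT2HKO mouse 2 (log2 fold change 1.23, edgeR adjusted p = 0.0518), and with DESeq2 1 gene of the list was called higher.

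Markers of other liver cells moved with genotype as well, while over all genes tested 12.5% were called higher and 16.5% lower. Of 7 cholangiocyte markers, 7 were lower (median -2.81), and their sum was 1015 to 1266 CPM in SHMT2fl/fl and 153 to 269 CPM in SHMT2HKO livers. Of 8 stellate cell and fibroblast markers 5 were lower (median -1.03, sum 1446 to 1500 against 329 to 861 CPM), of 8 lymphocyte markers 6 were lower (median -2.13, sum 42.1 to 62.4 against 15.5 to 24.4 CPM), and of 10 cycling cell markers 4 were lower (median -0.61, sum 125 to 133 against 75.5 to 125 CPM). The mitochondrial enzymes that were lower moved in the same direction as these lists. Of the 9 hepatocyte markers 4 were higher and 0 lower (median 0.63), in the direction of the cytosolic enzymes, but with ERCC scaling 0 were higher and 1 lower (median -0.14). Kupffer cell and macrophage markers were mixed (3 higher and 2 lower of 8, sum 218 to 349 against 359 to 447 CPM), and of 8 endothelial markers 2 were higher (median 0.18, -0.47 with ERCC scaling, sum 329 to 340 against 336 to 406 CPM). The lists that were lower kept a negative median on each scale. No marker was at 0 in all mice, and the part of these cells in the changes of the folate genes was not tested.

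**Figure D4:**
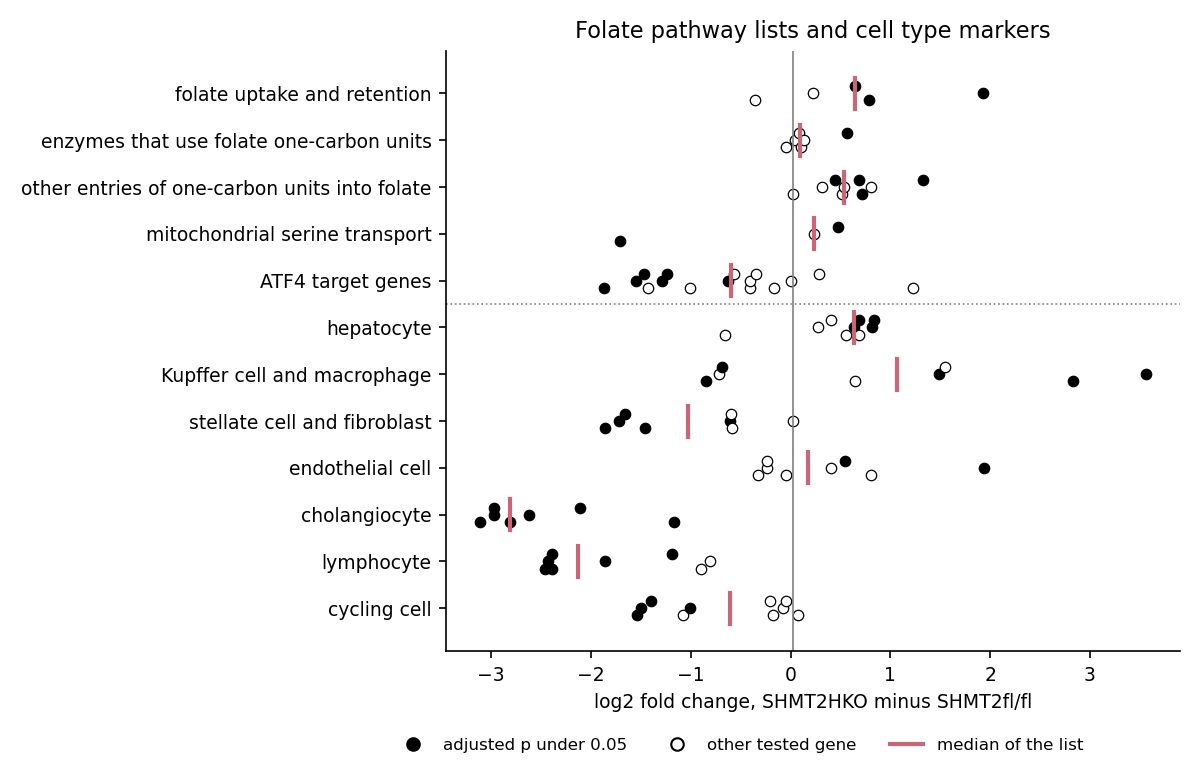
Log2 fold change (x axis) of each tested gene in 5 folate-related lists, above the dotted line, and 7 cell type marker lists below it, with filled points for an edgeR adjusted p under 0.05, a red bar at the median of the list and a grey line at the median of all genes, 0.03. The cholangiocyte markers lie lowest as a list, at a median of -2.81, and with ERCC scaling the median of all genes moves by -0.72.

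For the 6 called genes, the 3 genes with the most similar profile over the 6 livers were found by the root mean square difference of centred log2 CPM, among 12325 genes. For *Shmt2* these were *Rflnb* (0.138), *Sox9* (0.170), which is also in the cholangiocyte list, and *Dact3* (0.177). Their log2 fold changes were -2.08, -2.11 and -1.98, close to that of *Shmt2*, whose fall was set by the design. Genes with a similar fold change lie close by this measure, and a link between them was not tested. For *Shmt1* they were *Mpv17l* (0.0618), *Akr1c20* (0.0916) and *Olig1* (0.103), for *Mthfd1* they were *Chrnb2* (0.0187), the glycolytic gene *Pgk1* (0.0380) and *Abcb6* (0.0471), and for *Aldh1l1* they were *BC048644* (0.0924), *Gm10644* (0.111) and *Gamt* (0.119), which encodes the methyltransferase of creatine synthesis. For *Mthfd1l* they were *Trim47* (0.111), the adhesion molecule gene *Vcam1* (0.158) and *Rerg* (0.174), and for *Mthfd2* they were *Gdf6* (0.0632), the blood cell phosphatase gene *Inpp5d* (0.0765) and *Arhgap25* (0.0812). None of these genes was in the folate lists.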

How the data were processed

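Liver RNA from 6 samples was sequenced as read pairs. Per the labels and methods, the authors trimmed reads with Trimmomatic 0.36, aligned them with STAR 2.5.2b to GRCm38 with ERCC sequences, and counted unique hits per gene (featureCounts of Subread 1.5.2 is among the tools in the submitters' notes). The values deposited by the authors are raw gene counts without normalization. Library sizes and tests excluded the 92 ERCC rows.

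Columns were mapped to groups by their deposited labels. In R 4.3.3, edgeR 4.0.16 was used for filtering (filterByExpr), TMM scaling and a two-sided quasi-likelihood F test between genotypes with robust dispersions, with Benjamini-Hochberg adjustment over 16089 genes and a threshold of 0.05. Every adjusted p is from this test unless another tool is named. The code was tested on simulated counts. Alternatives were DESeq2 1.42.0, limma-voom (limma 3.58.1, the study's tool), other scalings and filters, dispersions without robust estimation, a replicate block, the study's cutoff and leaving out each mouse. Those for the pathway and marker lists were added after seeing the data. Lengths and positions are from GENCODE M21 (GRCm38).

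Named genes are the 9 genes, pathway list genes with an adjusted p under 0.05 (up to 4 per list), every gene of pathway lists under 8 genes, and 3 nearest profiles per called gene with a mean of at least 1 log2 CPM. Marker and pathway lists and the 9 genes were chosen with earlier results of these data known. The hepatocyte marker *Tf* was not analysed here, and 1 gene of the uptake list and 1 of the list of carbon users are not reported here and were left out of the list counts. Replicates of a genotype differed by more than sampling noise (chi-square per gene 23.6 to 140) and were counted separately.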

Additional observations from a re-analysis of the deposited data

How the results depend on the processing

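Of 120 values of the 8 tested genes under 15 alternatives each, 97 kept their direction and side of the threshold. Numbers higher and lower among the 8 were 3 and 3. The number higher was 1 without TMM and 0 with ERCC scaling, and each number was between 1 and 3 with 1 mouse left out. Of all genes, 4663 were called, 2866 with ERCC scaling and 2426 to 5597 with 1 mouse left out. Without TMM, the log2 fold changes were 0.31 for *Mthfd1* and 0.60 for *Aldh1l1* (calls lost), -0.76 for *Mthfd2l* (called) and -0.11 for *Slc25a32* (reversed). With ERCC scaling they were 0.39 for *Shmt1* and 0.16 for *Aldh1l1* (calls lost), and -0.034 for *Mthfd1* and -0.26 for *Slc25a32* (reversed). *Mthfd1l* lost its call without the filter (-1.32). With 1 mouse left out the ranges were 0.97 to 1.40 for *Shmt1*, 0.59 to 0.84 for *Mthfd1* and 0.81 to 1.33 for *Aldh1l1*. They were -1.95 to -0.97 for *Mthfd1l*, -1.58 to -0.96 for *Mthfd2* and -0.084 to 0.47 for *Slc25a32*. Whether samples of the same number are paired is not stated in the labels and remains unknown. Deviations of same-numbered mice correlated at -0.05, 0.01 and -0.08, and those of differently numbered mice at -0.02 to 0.08. Such weak correlations over all genes cannot exclude pairing that affects few genes. With the replicate block 3584 genes were called, and *Aldh1l1* (0.98, adjusted p = 0.0548 in edgeR) was the only one of the 6 to lose its call.

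Without correction for length, the log2 ratio of *Shmt2* to *Shmt1* was 0.22 in SHMT2fl/fl and -3.00 in SHMT2HKO livers, that of *Mthfd2* to *Mthfd2l* was 0.57 and -0.34 (reversed), and that of *Aldh1l2* to *Aldh1l1* was -11.28 in SHMT2fl/fl livers. With the longest transcript as length, control levels per kilobase were 43.3 for *Shmt2*, 29.8 for *Shmt1*, 37.1 for *Mthfd1*, 4.198 for *Mthfd1l*, 3.66 for *Mthfd2*, 1.23 for *Mthfd2l* and 135 for *Aldh1l1*.

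Among the list counts, uptake and retention had 1 gene higher without TMM, 0 with ERCC scaling, 1 to 3 higher and 0 to 1 lower with 1 mouse left out. The users had 0 higher without TMM, with upper quartiles, with ERCC scaling, under both other filters and with the replicate block, and 0 to 1 higher with 1 mouse left out. The other entries had 1 higher without TMM, 0 with ERCC scaling, 2 with the replicate block and 1 to 6 with 1 mouse left out. Serine transport had 0 higher without TMM, with upper quartiles and with ERCC scaling, and 0 to 1 with 1 mouse left out. ATF4 targets had 1 higher with DESeq2, 12 lower without TMM, and 0 to 1 higher and 3 to 9 lower with 1 mouse left out. Single list genes that reversed were, with ERCC scaling, *Slc46a1* (-0.10), *Slc19a1* (-0.47), *Mtr* (-0.64), *Mtrr* (-0.095), *Gart* (-0.57), *Atic* (-0.60), *Mtfmt* (-0.59), *Gcsh* (-0.10), *Ftcd* (-0.14), *Dld* (-0.24), *Sfxn1* (-0.48) and *Sfxn2* (-0.27). Without TMM they were *Slc19a1* (-0.19), *Mtr* (-0.37), *Gart* (-0.29), *Atic* (-0.34), *Mtfmt* (-0.32) and *Sfxn1* (-0.19), and with upper quartiles *Mtr* (-0.043) and *Atic* (-0.0086). With 1 mouse left out, *Mtr* ranged from -0.057 to 0.14 and *Tyms* from -0.11 to 0.081. Beyond the scaling, whose factors differ between genotypes, the causes were not tested. Depth limited *Aldh1l2*, with at most 17 counts. The floor of 3 counts covers counting error only, while the intervals of fold changes include the spread between mice.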
